A study of Rattus norvegicus with 192 samples.

Results

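Cxcl1, Cxcl2 and Cxcl3 are chemokines that call neutrophils out of the blood, and Cxcr2 is the receptor with which neutrophils read them. Cxcl12 and its receptor Cxcr4 form another chemokine pair, which keeps leukocytes and progenitor cells in their niches. The 6 genes were followed in rats that breathed phosphine or air. They were read by every probe set whose platform annotation names one of them and no other gene, which gave 14 of the 31042 probe sets tested and 6 of the 13438 genes named on the array. Cxcl1, Cxcl2 and Cxcr2 have 1 probe set each, Cxcl12 and Cxcr4 have 3 each and Cxcl3 has 5. No member was left out by a filter on low values.

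The rats were adult male Sprague-Dawley animals of 300 to 400 g. The exposed groups (PH3) inhaled 660 ppm phosphine, a fumigant gas that blocks mitochondrial respiration, for 25 min in a whole-body chamber, a product of 16500 ppm×min that the submitters give as 0.71 of the median lethal concentration-time product, and the controls (Air) breathed air. All 48 groups were killed by ketamine and xylazine followed by bleeding, at 1, 3, 6 or 24 h after exposure. The lung, heart, kidney, olfactory bulb, brain stem and blood of 59 rats gave 192 arrays, with 4 rats in each group except 3 in Air blood at 24 h and 5 in Air olfactory bulb at 1 h. Blood was drawn by heart stick and its RNA came from a different kit.

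The neutrophil-drawing ligands are made by epithelium, endothelium, macrophages and fibroblasts, largely under the control of the transcription factor NF-κB, and they act over short times. Cxcl12 is made steadily by stromal and vascular cells. Cxcr4 is carried by lymphocytes, monocytes, neutrophils and endothelial cells, and its transcription is known to depend on the factor NRF1 and to respond to oxygen supply and to corticosteroids.

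The stretches of DNA just before the start sites of Cxcl1, Cxcl2 and Cxcr4 are shown because these 3 genes had the largest effects below. They are the 120 bases ahead of the RefSeq start in build GRCr8, all 3 on the minus strand and written 5′ to 3′ along the gene. Capitals mark matches to the NF-κB consensus in Cxcl1 and Cxcl2, and to the NRF1 palindrome and TATAAA in Cxcr4.
Cxcl1, chr14:17479322-17479441: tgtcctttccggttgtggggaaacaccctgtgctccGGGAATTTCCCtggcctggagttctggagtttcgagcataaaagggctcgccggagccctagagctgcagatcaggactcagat
Cxcl2, chr14:17467256-17467375: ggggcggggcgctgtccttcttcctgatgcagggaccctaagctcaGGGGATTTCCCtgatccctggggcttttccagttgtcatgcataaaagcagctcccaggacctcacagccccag
Cxcr4, chr13:42634289-42634408: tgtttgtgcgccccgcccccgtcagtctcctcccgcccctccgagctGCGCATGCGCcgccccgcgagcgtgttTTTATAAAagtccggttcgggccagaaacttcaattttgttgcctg
Cxcl1 and Cxcl2 each held an NF-κB consensus match between 84 and 64 bases ahead of the start, read on both strands as 2 matches that overlap by all but 1 base. The consensus occurred in 6.33% of the 27457 rat promoters searched over the same 250 bases, and in none of the other promoters of these genes. The NRF1 palindrome of Cxcr4 began 73 bases ahead of the start and was held by 0.827% of promoters. Its TATAAA, on both strands and overlapping, occurred in 13.2%. GCGTG, a core of hypoxia response elements, was found in Cxcl2, Cxcl12 and Cxcr4 and in 26.9% of promoters, and ACGTG in Cxcl2 and in 16.9%. TGANTCA (AP-1, 6.41% of promoters) and the palindromic glucocorticoid response element (0.00364%) had no match in these windows. The promoter table matched 5 of the 6 genes, and Cxcl3 was not matched. A match describes the letters only.

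Nearly all fixed tissue markers were highest in their own tissue, such as Sftpc, the surfactant protein of the lung (Air level 13.60 in lung and 3.15 to 4.03 elsewhere), Myl2, the ventricular myosin light chain (13.41 in heart), and Alas2, the red cell haem enzyme (13.29 in blood). Exceptions were Napsa of the lung list, higher in kidney (11.37) than in lung (11.20), Tbr1 of the olfactory list, low everywhere and highest in blood (3.89), and Snap25 and Syt1 of the brain list, highest in olfactory bulb. Lung also carried heart muscle RNA, with an Air level of 10.58 for Myl7, the atrial myosin light chain. In bulk tissue, fewer cells of a type and less RNA per cell cannot be told apart. All levels are log2 intensities, where a difference of 1 is a doubling. Arrays give no read depth, so the number of arrays limits the precision. Levels across tissues are descriptions, because which arrays were normalised together is not given in the sources used here.

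In air-breathing rats the members divided the tissues between them. Cxcl1 had its highest level in lung, 7.35 ± 0.391 (SD, n = 16 arrays), with no overlap with any other tissue. Elsewhere its mean lay between 2.94 in olfactory bulb and 4.07 in blood, and most neighbours in that order overlapped. Cxcl2 was dim everywhere, from 3.11 in brain stem to 3.91 ± 0.545 in blood (n = 15). Cxcr2 was highest in blood, 6.76 ± 0.672, then 3.97 ± 0.452 in lung, and 3.31 or lower in the solid tissues that remain.

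The 5 probe sets of Cxcl3 did not give 1 picture. A bright pair, 1388033_PM_at and 1393182_PM_at, stood high in lung, at 12.49 ± 0.0771 and 10.45 ± 0.206, which are the 99.8th and 97.3rd percentiles of all probe sets there. In the other tissues these same sets lay between 2.80 and 4.01. The remaining sets, 1370633_PM_at, 1370634_PM_x_at and 1388032_PM_a_at, were between 4.95 and 5.08 in lung and between 4.21 and 5.63 in blood. Their annotation names the same gene, and the files used here do not settle which of them follows the Cxcl3 message.

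Cxcl12 was highest in kidney, 10.95 ± 0.152, 9.43 ± 0.246 and 10.58 ± 0.175 in its sets 1369633_PM_at, 1387655_PM_at and 1388583_PM_at. It was lowest in blood, where Cxcr2 was highest, at 4.38 ± 0.684, 3.57 ± 0.373 and 3.65 ± 0.298. Heart and lung followed kidney, with an order that differed between probe sets, and then came olfactory bulb and brain stem. Cxcr4 was highest in lung, 9.07 ± 0.284, 9.28 ± 0.234 and 9.54 ± 0.262 in its sets 1370097_PM_a_at, 1373661_PM_a_at and 1389244_PM_x_at. Blood lay at 7.08 ± 1.35, 8.36 ± 0.616 and 8.98 ± 0.562, heart between 7.41 and 7.91 and olfactory bulb between 7.34 and 7.79, and these 3 tissues overlapped. Lung overlapped with the next tissue on 2 of the 3 sets. Brain stem, 4.80 to 5.50, and kidney, 4.74 to 5.42, were lowest and overlapped. Kidney, which had the highest Cxcl12 level, was together with brain stem lowest in Cxcr4.

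**Figure D1:**
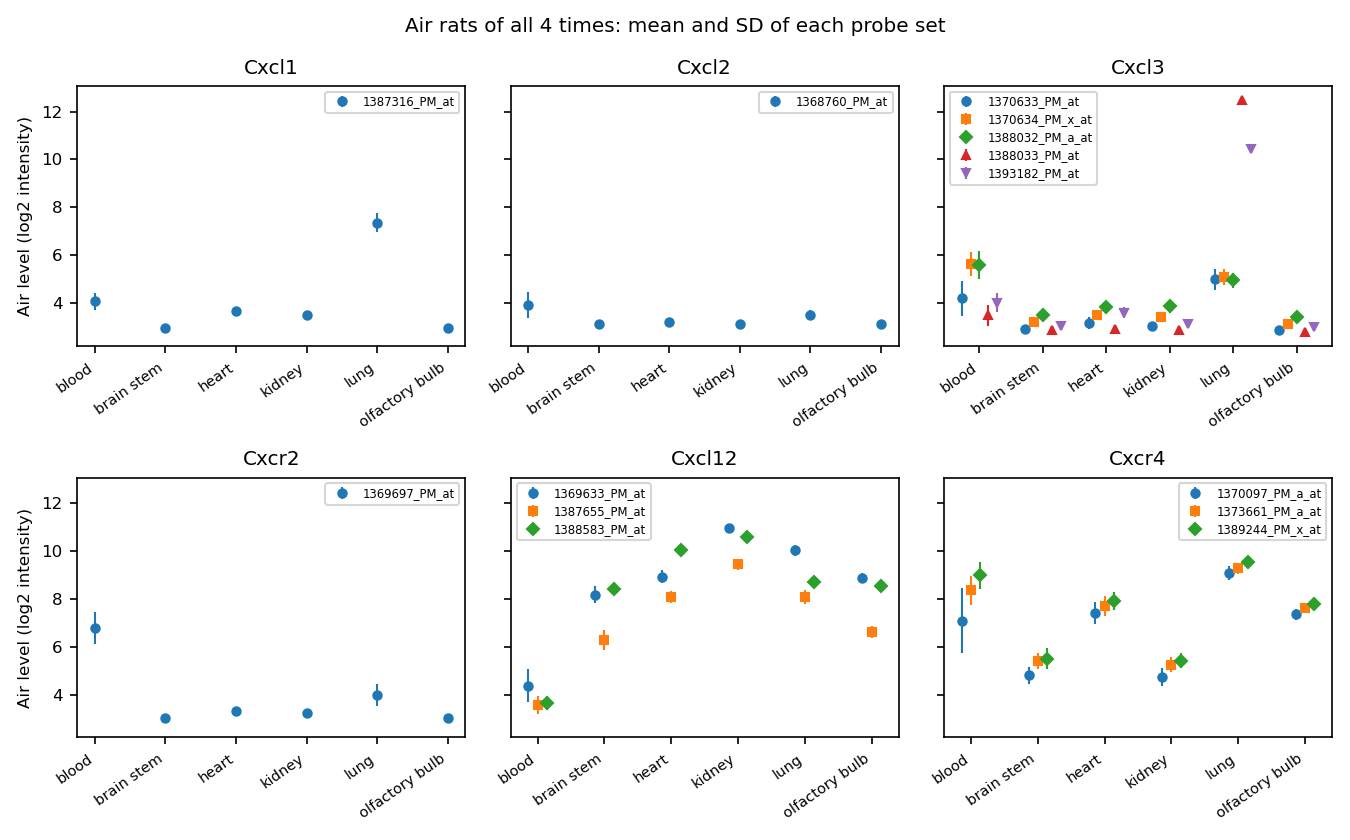
Air levels (log2 intensity) of the 14 probe sets in 6 tissues, as mean (symbol) and SD (bar) over 15 to 17 arrays of all 4 times, with 1 panel per gene. Cxcl1 stands alone in lung at 7.35, 2 of the 5 Cxcl3 sets reach 10.45 and 12.49 there, Cxcl12 peaks in kidney and Cxcr4 in lung.

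Whether phosphine moved these genes was asked by setting PH3 against Air rats of the same tissue and time (limma on the 31042 probe sets of each tissue, with Benjamini-Hochberg adjustment and calls at an adjusted p under 0.05). At 1 h, 10 of the 84 effects (14 probe sets in 6 tissues) were called, against 1.3% of all effects at that time. At 3 h 1 of 84 was called (background 1.7%). At 6 h and 24 h limma called 0 (backgrounds 0.00268% and 0.00161%), with 7 and 10 of 84 effects at an unadjusted p under 0.05. Of all probe sets, 2.91% to 9.84% had such a p in a tissue at 6 h and 4.09% to 7.79% at 24 h. A fit of all tissues with the rat as a random block called 3 and 1 at these times, all in blood. That fit shares 1 spread among tissues, so that its errors in blood were smaller (an SE of 0.177 against 0.348 within blood for Cxcl2 at 1 h). In quieter tissues its errors were larger. For Cxcl1 at 1 h its SE was 0.264, against 0.470 within heart, 0.197 within lung and 0.139 within brain stem. It called 3.96%, 1.32%, 1.81% and 3.11% of all effects at 1, 3, 6 and 24 h. Of the 10 calls at 1 h, 9 were falls of Cxcr4, in heart, brain stem and lung, and 1 was a rise of Cxcl1 in heart.

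**Figure D2:**
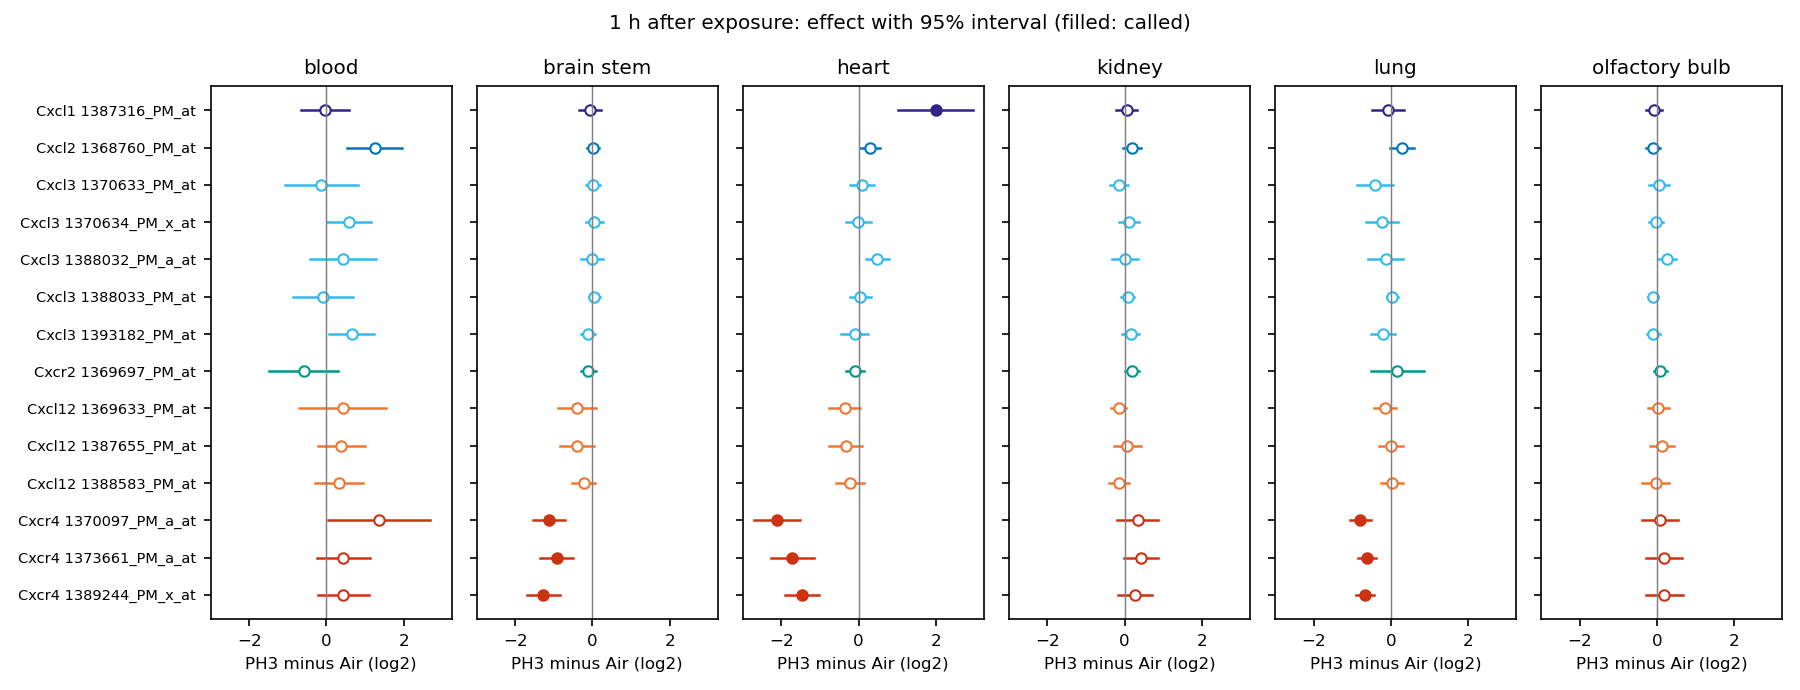
PH3 minus Air (log2) at 1 h for the 14 probe sets (rows, coloured by gene) in 6 tissues (panels), with 95% intervals; filled points were called. The 3 Cxcr4 sets lie left of 0 in brain stem, heart and lung and right of 0 in blood, kidney and olfactory bulb, and Cxcl1 stands out in heart at 1.99.

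Cxcr4, the receptor of Cxcl12, fell most in the heart. With 1389244_PM_x_at, the 4 Air hearts at 1 h read 7.84, 8.12, 8.34 and 8.39, and the 4 PH3 hearts 6.28, 6.41, 6.84 and 7.26. The groups did not overlap, which held for 7.51% of all probe sets in heart at 1 h. The effect was -1.48 ± 0.215 (SE; adjusted p = 3.4e-04), a 2.78-fold lower intensity. The other sets gave -2.11 ± 0.294 (adjusted p = 2.0e-04) and -1.72 ± 0.273 (adjusted p = 0.0011), also without overlap. In heart at 1 h 0.461% of all probe sets were called lower.

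The array of PH3 animal Rat357 stood apart from the other hearts by its correlation with them, and its 3′ minus 5′ difference, a measure of RNA quality from the Gapdh and beta-actin control probe sets, was 0.868 against 0.214 to 0.283 in the other 7 hearts at 1 h. It had the lowest Cxcr4 on all 3 sets, for example 5.40 on 1373661_PM_a_at against 6.37 to 6.95 in the other PH3 hearts. The fall did not rest on that rat, since leaving out any one of the 32 rats kept all 3 calls, with effects from -1.74 to -2.47, -1.41 to -1.92 and -1.34 to -1.67. With the 1 h groups fitted alone, adjusted p was 0.0929, 0.0831 and 0.0628.

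In the brain stem Cxcr4 fell from a low level. On 1389244_PM_x_at Air rats read 5.35, 5.52, 5.88 and 5.96 and PH3 rats 4.08, 4.16, 4.46 and 4.91, an effect of -1.28 ± 0.209 (adjusted p = 0.00256). The groups were apart, as were those of 4.32% of all probe sets. The other sets gave -1.13 ± 0.204 (adjusted p = 0.00628) and -0.93 ± 0.208 (adjusted p = 0.0434), where 0.116% of all probe sets were called lower. The last of these was lost in 14 of the 32 single-rat omissions (highest adjusted p = 0.265), and the -1.13 was lost without Rat343 or Rat352. With the 1 h groups fitted alone, 1389244_PM_x_at and 1373661_PM_a_at lost their calls (adjusted p = 0.0865 and 0.212), and with the 3′ minus 5′ difference as a covariate 1373661_PM_a_at did (adjusted p = 0.108). In the same arrays 10 of 12 endothelial markers and all 10 fibroblast markers had negative effects, with medians of -0.23 and -0.48 and 0 called. The mean level of the fibroblast markers ran from 6.92 to 7.46 in Air and from 6.42 to 7.30 in PH3, that of the endothelial markers from 6.82 to 7.12 and from 6.70 to 6.79. Their part in the fall of Cxcr4 was not tested.

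In the lung, where Cxcr4 was brightest, the fall was smaller. Air lungs read 9.38, 9.74, 9.75 and 10.05 on 1389244_PM_x_at and PH3 lungs 8.94, 9.02, 9.04 and 9.21. All 4 PH3 lungs lay below all Air lungs, as in 9.46% of all probe sets in either direction, and the effect was -0.68 ± 0.115 (adjusted p = 4.4e-04). The other sets gave -0.79 ± 0.132 (adjusted p = 3.5e-04) and -0.61 ± 0.114 (adjusted p = 0.00119), in a contrast that called 1.89% of probe sets lower. No single rat removed these calls, but with the 1 h groups fitted alone the -0.79 did not pass (adjusted p = 0.0668).

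The size of the lung effect depended on which Air rats served as controls, because Air lungs differed between times. On 1389244_PM_x_at the Air means were 9.73, 9.74, 9.29 and 9.41 at 1, 3, 6 and 24 h (F test, adjusted p = 0.013). On 1370097_PM_a_at they were 9.38, 8.82, 9.05 and 9.05 (adjusted p = 0.0314). The members whose Air lungs differed were 3 of 14, these sets and 1387655_PM_at of Cxcl12 (adjusted p = 0.0332), against 12.2% of all probe sets. Against the Air lungs of the other 3 times the 1 h effects were -0.39, -0.38 and -0.43 in place of -0.79, -0.61 and -0.68, and all 3 were still called.

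Of 11 markers of lymphocytes, which carry the receptor, 10 had negative effects in lung at 1 h (median -0.26). Of them 0 were called, where 1.89% of all probe sets were called lower. The mean level of the 11 markers ran from 6.36 to 6.80 in Air and from 6.15 to 6.51 in PH3. In heart the same markers were near the lower end of the scale, 3.99 to 4.21 in Air and 3.98 to 4.53 in PH3, with 8 of 11 positive. Whether lymphocyte content had a part in the lung result was not tested.

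**Figure D3:**
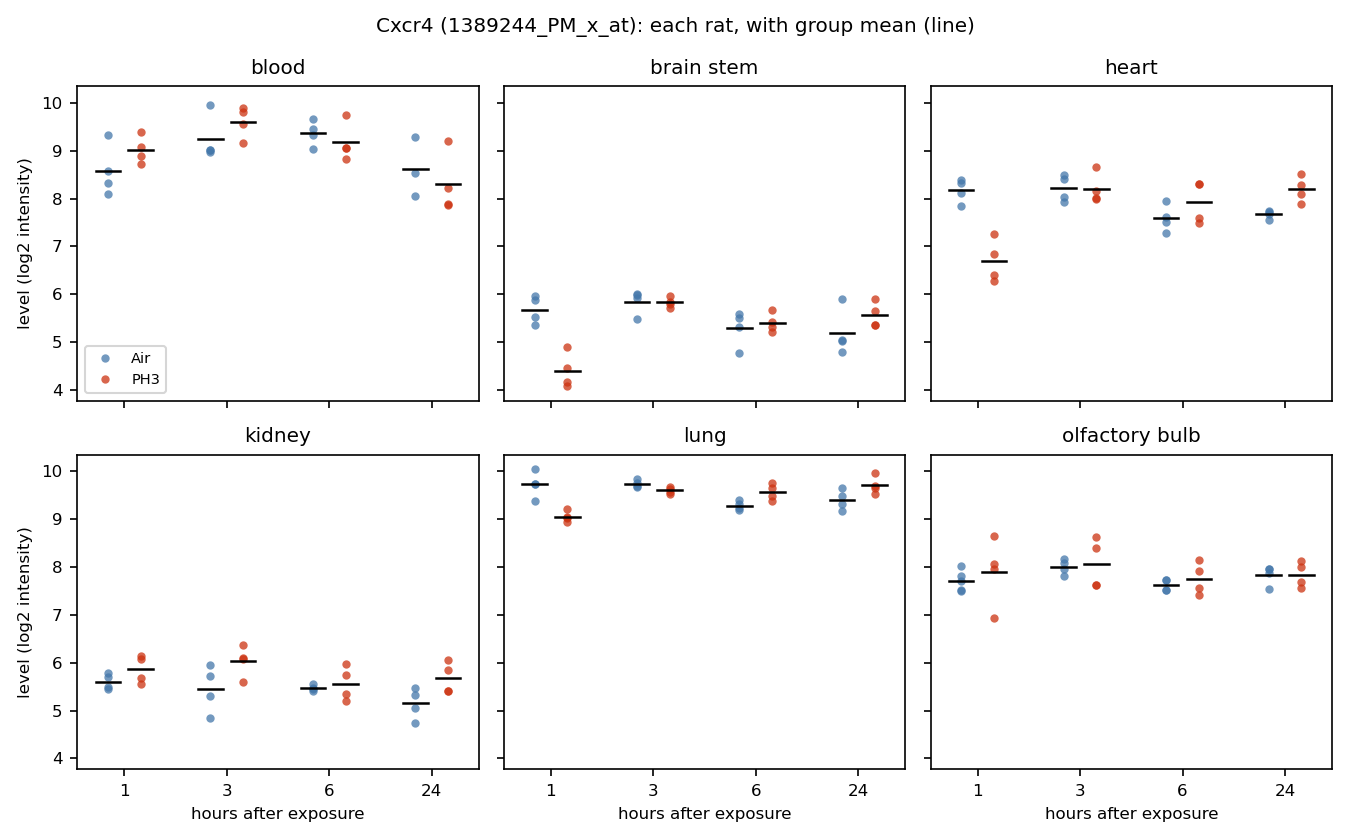
Cxcr4 level (log2 intensity, 1389244_PM_x_at) of each rat by hours after exposure in 6 tissues; blue points are Air, red points PH3, and lines are group means. At 1 h the 4 PH3 rats lie below the 4 Air rats in brain stem, heart and lung, while the groups overlap in blood, kidney and olfactory bulb.

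The fall was not shared by every tissue. At 1 h the effects of the 3 Cxcr4 sets were 0.33, 0.43 and 0.26 in kidney (lowest adjusted p = 0.438), 0.09, 0.17 and 0.19 in olfactory bulb and 1.36, 0.44 and 0.44 in blood (lowest adjusted p = 0.578). In blood, the Air values of 1370097_PM_a_at spread from 4.50 to 7.74 and the PH3 values from 6.83 to 8.13, so the groups overlapped and the 95% interval of the effect ran from 0.04 to 2.68. The difference between the 6 tissues at 1 h was called for each Cxcr4 set by a Welch-type F test on the tissue effects (adjusted p = 3.3e-06, 1.2e-05 and 3.3e-06), and for 3.09% of all probe sets. Blood, brain stem, heart, kidney and lung of a time came from largely the same animals. The olfactory bulbs at 1 h came from other rats, so tissue and animals cannot be told apart there. With the rat as block the heart calls stayed, as did 1389244_PM_x_at in brain stem (adjusted p = 8.2e-04). The other brain stem sets (adjusted p = 0.616 and 0.174) and the lung sets (adjusted p = 0.615, 0.423 and 0.199) were lost. In that fit the shared spread gave 1370097_PM_a_at an SE of 0.353, larger than its SE within heart, brain stem or lung given above. The part of this spread in the lost calls was not tested. The same fit called 1370097_PM_a_at higher in blood (1.36 ± 0.353, adjusted p = 0.0026), where it called 19.4% of all probe sets. In those blood arrays all 11 lymphocyte markers and all 9 monocyte markers had negative effects (medians -0.36 and -0.55). Limma within blood called 0 of them, as of all probe sets there, and their part was not tested.

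The receptor's fall was brief. At 3 h the Cxcr4 effects in heart were -0.05, -0.13 and -0.01 and in brain stem 0.24, -0.14 and -0.01. The effect differed between the 4 times for all 3 sets in heart (F test, adjusted p = 0.00418, 0.0155 and 0.00558; 0.116% of all probe sets), all 3 in lung (adjusted p = 2.9e-04, 0.00109 and 0.00118; 4.82%) and 1389244_PM_x_at in brain stem (adjusted p = 0.0383; 0.0709%). These 7 were the only members so called in any of the 6 tissues. Over the 4 times the 12 Cxcr4 effects in kidney ran from 0.06 to 0.74 (lowest adjusted p = 0.283). Of these, 4 had an unadjusted p under 0.05, as had 6.28% to 12.2% of all probe sets in kidney at a time. In blood the Cxcr4 effects ran from -0.88 to 1.36 (lowest adjusted p = 0.578), with 1 at an unadjusted p under 0.05 (2.93% to 8.34% of all probe sets). In olfactory bulb they ran from -0.08 to 0.19.

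At 24 h the heart values lay on the other side. PH3 hearts read 7.89, 8.10, 8.29 and 8.51 on 1389244_PM_x_at and Air hearts 7.55, 7.68, 7.71 and 7.73, again without overlap (3.8% of all probe sets), but the effect of 0.53 ± 0.215 did not pass (adjusted p = 0.667). The other sets gave 0.74 and 0.53 (adjusted p = 0.654 and 0.713). Lung at 24 h had effects of 0.45, 0.45 and 0.30 (adjusted p = 0.653, 0.653 and 0.778), the first 2 without overlap, as in 3.81% of probe sets. Over all members, arrays did not overlap in 14 of 84 comparisons at 1 h, 4 at 3 h, 1 at 6 h and 7 at 24 h, against 5.37%, 5.51%, 2.99% and 3.87% of all comparisons.

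The single call at 3 h was Cxcr4 in lung, and it rested on 1 of 3 probe sets. On 1370097_PM_a_at PH3 lungs read 9.28, 9.31, 9.35 and 9.35 and Air lungs 8.62, 8.81, 8.86 and 9.002, an effect of 0.50 ± 0.132 (adjusted p = 0.0163; 5.86% of all probe sets were called higher). The groups were apart, as in 13.1% of probe sets. The other sets gave 0.04 ± 0.114 and -0.14 ± 0.115. The 3′ minus 5′ difference of the arrays was 0.445 ± 0.0776 in Air lungs at 3 h and 0.178 ± 0.0651 in PH3 lungs, and with it as a covariate the effect was 0.31 (adjusted p = 0.587). It was 0.16 (adjusted p = 0.582) against Air lungs of the other times, and was also lost without Rat355 or Rat368 (highest adjusted p = 0.0665) and with the rat as block (adjusted p = 0.774).

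**Figure D4:**
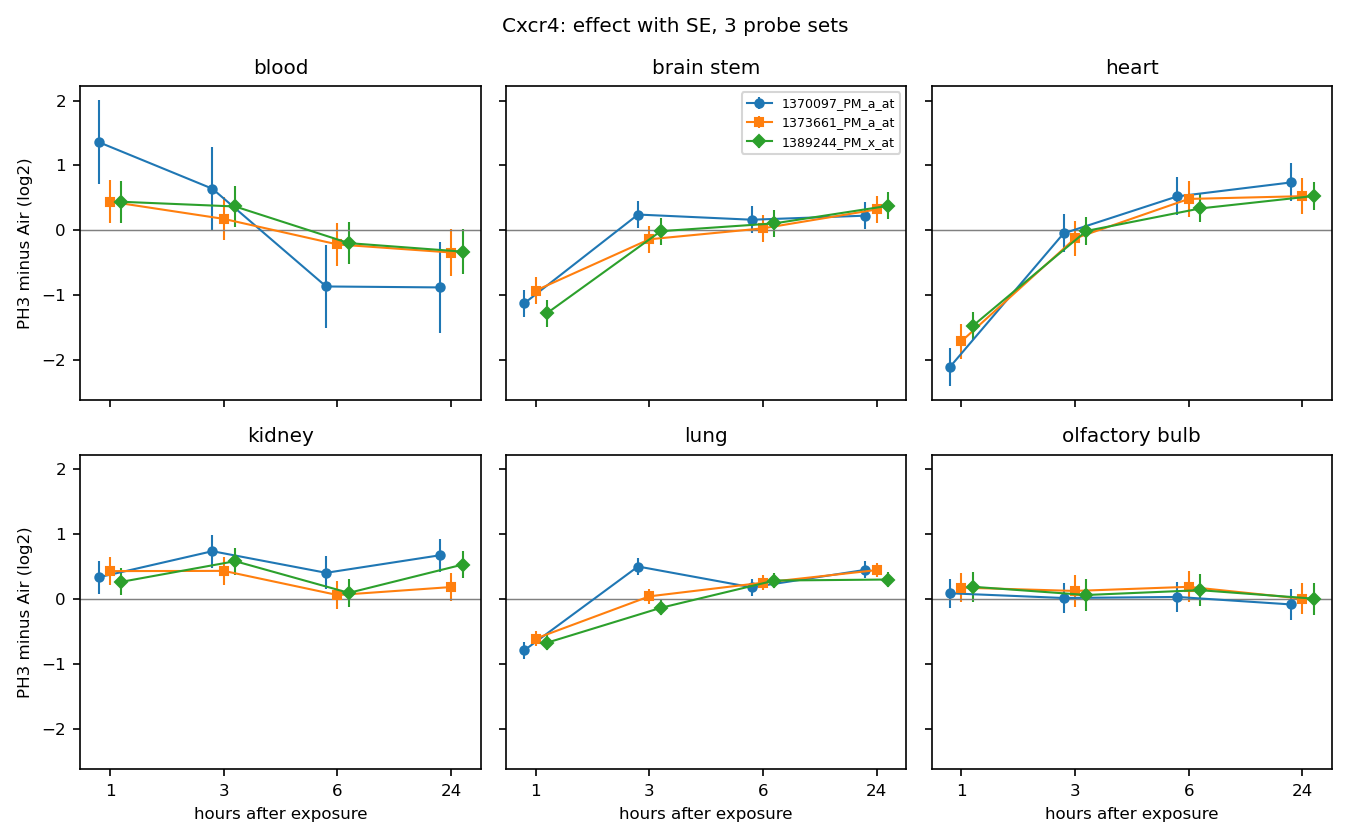
PH3 minus Air (log2) of the 3 Cxcr4 probe sets at 1, 3, 6 and 24 h in 6 tissues, with bars of 1 SE. The sets start between -0.61 and -2.11 in brain stem, heart and lung and lie near or above 0 from 3 h on, and at 3 h in lung 1 of them, at 0.50, parts from the other pair.

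Among the ligands, Cxcl1 rose in the heart at 1 h, its single call among 24 comparisons. Air hearts at 1 h read 3.42, 3.53, 3.64 and 3.68, and PH3 hearts 5.80 (Rat343), 5.76 (Rat350), 3.87 (Rat351) and 6.81 (Rat357). All 4 exceeded the Air hearts, with Rat351 just over their range and the other 3 far above it. Groups were apart for 7.51% of all probe sets in heart at 1 h. The Air hearts lay near the low end of the array's range. The effect was 1.99 ± 0.470 (95% interval 1.03 to 2.96; adjusted p = 0.0336), a 3.98-fold higher intensity, where 0.454% of all probe sets were called higher. The same 4 PH3 hearts had Cxcr4 in the reverse order at both ends, with Rat357 lowest and Rat351 highest on all 3 sets. The call was lost without any one of 7 of 32 rats (Rat343, Rat345, Rat350, Rat352, Rat353, Rat354 or Rat357), with effects from 1.58 to 2.56 over the 32, and without Rat357 it was 1.58 (adjusted p = 0.19). It was also lost with the 1 h groups alone (adjusted p = 0.151), and held with the rat as block (adjusted p = 5.6e-09). The block fit shares 1 spread among tissues, and its SE was 0.264 against 0.470 within heart. Its smaller p thus does not rest on the spread between hearts alone.

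At 3 h and 6 h, in other animals, the effect of Cxcl1 in heart did not pass, and 1 PH3 heart in each group was high. At 3 h the PH3 animal Rat368 read 5.13 while the other 3 PH3 hearts read 3.53 to 3.89 and Air hearts 3.63 to 3.89. At 6 h the PH3 animal Rat391 read 6.11 beside 3.17 to 3.65 in the other PH3 hearts. The group effects were 0.35 ± 0.470 and 0.36 ± 0.470, smaller than their SE, and -0.15 at 24 h. The array of Rat368 also stood apart from the other hearts.

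Cxcl1 in the other tissues had effects between -0.08 and 0.05 at 1 h. In lung, where it was brightest, the 95% interval at 1 h was -0.47 to 0.33. The difference between the 6 tissues was not called for Cxcl1 by the Welch-type test (adjusted p = 0.0991), while the fit with the rat as block called it (adjusted p = 8.0e-06). The lowest lung effect, -0.57 ± 0.197 at 24 h, did not pass (adjusted p = 0.736), with PH3 at 6.52 to 7.17 and Air at 7.07 to 8.07.

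**Figure D5:**
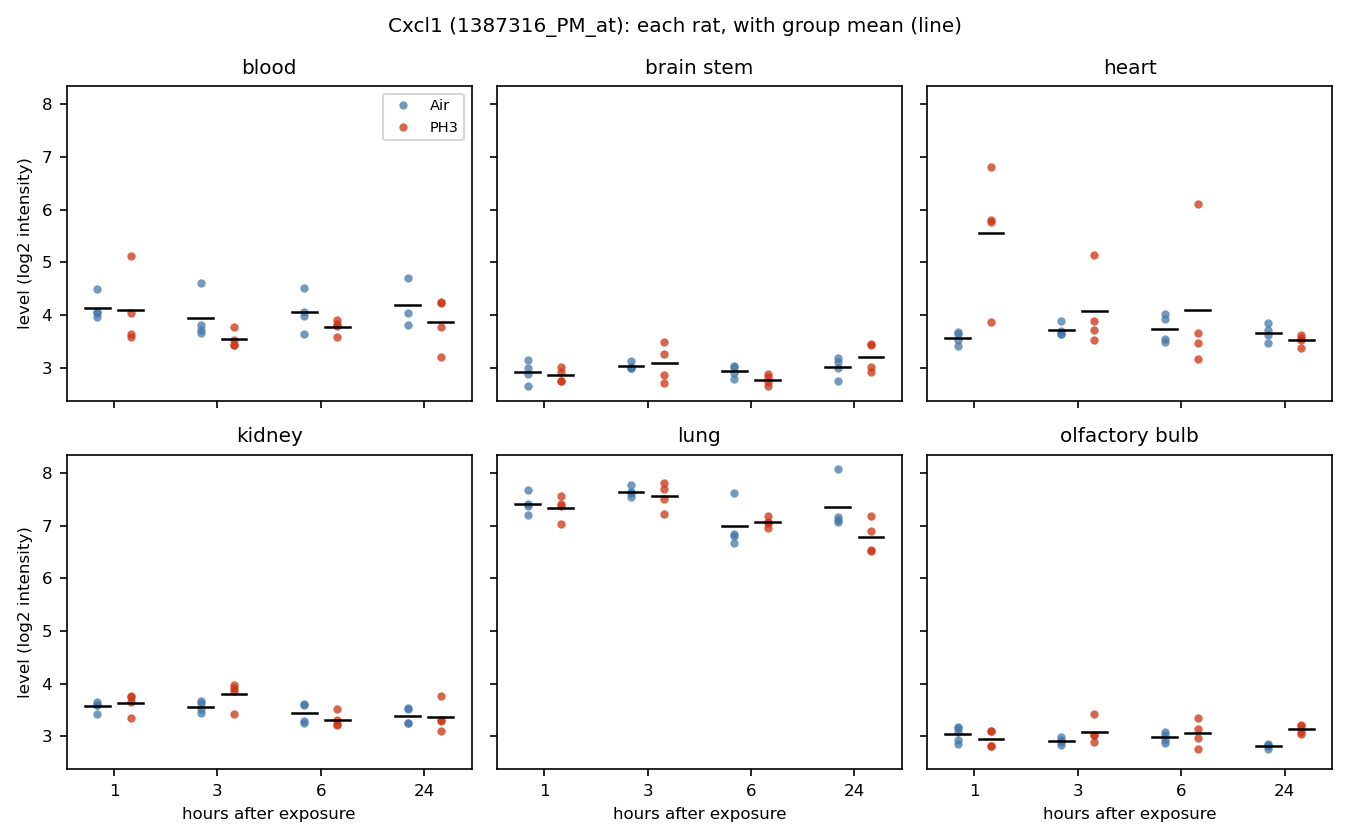
Cxcl1 level (log2 intensity, 1387316_PM_at) of each rat by hours after exposure in 6 tissues; blue points are Air, red points PH3, and lines are group means. In heart at 1 h 3 PH3 rats lie between 5.76 and 6.81 and the fourth at 3.87, above the Air rats at 3.42 to 3.68, and lung is bright in both groups.

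Cxcl2, the close relative of Cxcl1, had its largest effect in blood. At 1 h Air bloods read 3.47, 3.49, 3.52 and 3.87 and PH3 bloods 4.52, 4.72, 4.76 and 5.35, without overlap, as in 3.98% of all probe sets. The effect of 1.25 ± 0.348 did not pass (adjusted p = 0.252), in a contrast where limma called 0 of 31042 probe sets. With the rat as block it was called (1.25 ± 0.177, adjusted p = 2.0e-08), with the share of 19.4% given above. In lung the PH3 values, 3.72 to 3.81, lay above Air, 3.43 to 3.51, by 0.29 (adjusted p = 0.383). Groups were apart for 9.46% of all probe sets there. In heart the effect was 0.31 ± 0.126 (adjusted p = 0.318). The Welch-type test between tissues gave an adjusted p of 0.0556, and the fit with the rat as block 2.7e-04. At 3, 6 and 24 h the effects of Cxcl2 ran from -0.40 to 0.13, the lowest adjusted p being 0.234.

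Cxcl3, the third ligand, passed in none of its 120 comparisons (lowest adjusted p = 0.0595), and in 2 of them the groups did not overlap, 1370633_PM_at in lung and 1393182_PM_at in olfactory bulb, both at 3 h (13.1% and 5.6% of all probe sets). That lowest value was lung at 3 h on 1370633_PM_at, where PH3 rats read 4.33, 4.65, 4.87 and 4.93 and Air rats 5.32, 5.33, 5.35 and 5.46, an effect of -0.67 ± 0.227. The groups did not overlap. The bright lung sets, 1388033_PM_at and 1393182_PM_at, had effects of -0.02 and -0.20 there. In heart at 1 h 1388032_PM_a_at had 0.49 ± 0.149 (adjusted p = 0.124) with overlap, and the other 4 sets lay between -0.10 and 0.08. In blood the block fit called Cxcl3 sets higher at 1, 3, 6 and 24 h, for example 1370634_PM_x_at at 6 h by 0.87 ± 0.173 (adjusted p = 2.1e-04), which limma within blood did not (0.87 ± 0.278, adjusted p = 0.998). The block fit also called the difference between tissues at 1 h for 1393182_PM_at (adjusted p = 0.0409, against 0.406 by the Welch-type test). In all it called 10.7% of probe sets in blood at 6 h.

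Cxcr2, the receptor of these ligands, passed in none of 24 comparisons. In blood, its brightest tissue, effects were -0.59 ± 0.437, 0.48 ± 0.437, -0.57 ± 0.437 and 0.30 ± 0.472 at 1, 3, 6 and 24 h, with no constant sign. In lung at 3 h it had 0.68 ± 0.334 (95% interval -0.01 to 1.36, adjusted p = 0.211). With the 3′ minus 5′ difference as a covariate this effect was 0.02 (adjusted p = 0.992). Against the Air lungs of the other times it was 0.34 (adjusted p = 0.669). Markers of neutrophils had positive effects in lung at 3 h in 10 of 10, with a median of 0.55 against -0.00448 for all probe sets. Of the 10, 4 were called higher (5.86% of all probe sets). The 4 were S100a8 (1.41) and S100a9 (1.21), calcium-binding proteins of the neutrophil cytoplasm, Mmp8 (1.36), a collagenase of its granules, and Alox5ap (0.80), which helps make leukotrienes. The Air lungs at 3 h were the lowest Air lungs for both S100 genes. For S100a8 the Air means at 1, 3, 6 and 24 h were 8.22, 7.26, 8.72 and 7.79, beside 8.68 in PH3 at 3 h. For S100a9 they were 10.38, 9.53, 10.62 and 9.64, beside 10.74. The mean level of the list at 3 h ran from 5.95 to 6.79 in Air and from 6.84 to 7.30 in PH3. In these arrays the 3′ minus 5′ difference also separated the groups, and its part in the marker effects was not tested. At 1 h 0 of the 10 markers were called in any tissue, heart included (median 0.01). Only 1.3% of all effects were called at that time, so a count of 0 is near that share.

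Cxcl12, the ligand of Cxcr4, passed in none of 72 comparisons. In heart at 1 h its sets had effects of -0.36 ± 0.196, -0.34 ± 0.210 and -0.21 ± 0.177 (lowest adjusted p = 0.496). On 1387655_PM_at the PH3 hearts, 7.64 to 7.92, lay below the Air hearts, 8.01 to 8.25, and groups were apart for 7.51% of all probe sets. In brain stem at 1 h they had -0.41, -0.40 and -0.23 (lowest adjusted p = 0.829), and in kidney, the brightest tissue, -0.15, 0.07 and -0.14. The lowest adjusted p was 0.105, for 1387655_PM_at in lung at 3 h, 0.39 ± 0.152, while 1388583_PM_at had -0.25 ± 0.136 in the same lungs. The block fit called 1388583_PM_at in blood at 6 h (0.68 ± 0.188, adjusted p = 0.00906), where Cxcl12 was near the low end of the array's range (Air 3.52, PH3 4.21).

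Of 18 measured genes around the Cxcr4 axis, 1 was called higher in brain stem, 1 in heart, 2 in kidney and 1 in lung at 1 h, and 0 lower, with medians between -0.21 and 0.06 over the tissues. Of all probe sets, 0.19%, 0.454%, 1.51% and 2.35% were called higher in those 4 tissues. Ackr3, the scavenging second receptor of Cxcl12, rose in brain stem by 0.67 ± 0.119 (adjusted p = 0.00607). Rgs1, which shuts off chemokine receptor signals, rose in lung by 1.61 ± 0.313 (adjusted p = 0.00183), in kidney by 1.34 ± 0.357 and in heart by 0.65 ± 0.158. Hif1a, the oxygen-regulated transcription factor, rose in kidney by 0.34 ± 0.0821. At 3 h in lung Arrb1 (0.75) and Grk2 (0.27), which desensitise receptors, and Cxcl14 (0.52), a chemokine that binds Cxcr4, were called higher, 3 of 18 against 5.86% of all probe sets.

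Of 15 measured genes of neutrophil recruitment, Ppbp, a platelet chemokine read by Cxcr2, rose in lung at 1 h by 0.50 ± 0.143 (adjusted p = 0.0414), while Icam1, the endothelial ligand of leukocyte integrins, fell by 0.30 (adjusted p = 0.0183). That is 1 of 15 in each direction, where 2.35% of all probe sets were called higher and 1.89% lower. C5ar1, the complement receptor of neutrophils, fell in kidney by 0.67, 1 of 15 against 0.841% called lower. No other member of that list was called at 1 h or 3 h in the 6 tissues.

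Cxcl1 stood beside other rapid inflammatory genes in the heart. Of 20 measured targets of NF-κB and cytokine signals, 16 had positive effects in heart at 1 h (median 0.42, against -0.00357 for all probe sets) and 4 were called higher, against 0.454% of all probe sets: Ptgs2 (2.34 ± 0.529), which makes prostaglandins, Socs3 (1.83), which damps cytokine receptors, Nfkbiz (1.78), a nuclear partner of NF-κB, and Il6 (1.21), the interleukin. In lung at 1 h the list was split. Il1a (2.02 ± 0.394), an alarm cytokine, and Nfkbia (0.97), the inhibitor of NF-κB, were called higher, and the monocyte chemokines Ccl2 (-1.31) and Ccl7 (-0.89) with Icam1 lower, 2 and 3 of 20 against 2.35% and 1.89% of all probe sets. In brain stem and kidney Nfkbia rose by 1.29 and 0.78 (1 of 20 each, against 0.19% and 1.51%), and in kidney Ccl2 fell by 1.61 (1 of 20 against 0.841%).

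Of 18 measured genes induced by corticosteroids, 9 were called higher at 1 h in brain stem, 9 in heart, 12 in lung and 11 in kidney, with medians of 0.74, 1.22, 1.10 and 0.73. Of all probe sets, 0.19%, 0.454%, 2.35% and 1.51% were called higher there. In olfactory bulb and blood 0 were called, with medians of 0.18 and 0.12. In blood at 1 h limma called 0 of all 31042 probe sets, so no other count was possible. In olfactory bulb at 1 h almost no probe set of the array was called either, so the count of 0 there says little about these genes. An unadjusted p under 0.05 was reached by 5.15% of all probe sets there. At 6 h and 24 h no member of any of these lists was called, where 0.00268% and 0.00161% of all effects were.

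Over the 24 effects of the series (6 tissues at 4 times), the genes whose pattern was most like that of Cxcl1 were Il6 (r = 0.858), Klhl40 (0.843), a muscle protein, Ptgs2 (0.842), Sdc4 (0.824), a cell surface proteoglycan, and Junb (0.809), an AP-1 subunit, among 13432 genes. Each of the 5 was called higher in heart at 1 h. There Cxcl1 had its 1 large effect (1.99, against -0.57 to 0.36 in the other 23), so these calls largely follow from how the genes were picked. Most like Cxcr4 (1389244_PM_x_at) were Tmem51 (0.799), Plekhh3 (0.781), Hlx (0.769), a homeobox factor, Tbc1d2b (0.741) and Zfp395 (0.736). Of these Hlx (-0.99) and Zfp395 (-0.60) were called lower in heart at 1 h, and Tbc1d2b (-0.40) and Zfp395 (-0.33) in lung. Heart at 1 h was also the largest effect of that Cxcr4 set (-1.48), so the calls there are tied to the selection too. The 24 effects share rats and arrays. The effects of the 3 Cxcr4 sets followed each other closely (r of 0.905 to 0.959), those of Cxcl12 less so (0.323 to 0.815), and those of the 5 Cxcl3 sets from -0.07 to 0.681. The highest r of the Cxcr4 sets was between 1373661_PM_a_at and 1389244_PM_x_at, which share 1 source sequence in the annotation.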

How the data were processed

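Gene expression was measured on Affymetrix rat 3′ arrays. The deposited values are log2 intensities, 1 per probe set and array, which the authors computed by the RMA method; per the submitters' processing notes Partek was the software. RMA subtracts background, equalises the distributions of arrays and merges the probes of a set, so dim values are compressed. The 97 control probe sets were left out of the 31139, and no filter on dim probe sets was used. A single gene is named by 19063 of the sets, several by 572, and 11407 have no name here.

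Groups came from the labels. In R 4.3.3 with limma 3.58.1, each tissue was fitted on its own with 1 coefficient for every combination of exposure and time, tests were two-sided, and F tests compared effects and Air levels between times. A Welch-type F test compared effects between tissues. The scripts were checked on simulated data. Each array of a tissue came from another rat, so p-values measure the spread between rats. Rat numbers pair the tissues of 1 animal, not PH3 with Air, and the consensus correlation within rats was 0.0168. The highest correlation of 2 arrays was 0.9957.

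List genes were read by their brightest probe set in a tissue, up to 4 called members being named, and the 5 genes most like Cxcl1 and Cxcr4 by Pearson correlation of effects. The alternatives were each time fitted alone, the brighter probe sets only, another scaling, array weights, a trended and robust prior, the 3′ minus 5′ difference as a covariate, the rat as block, and leaving out each rat. The members and lists were chosen with earlier results of these data known. Promoters are from RefSeq (GRCr8).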

Additional observations from a re-analysis of the deposited data

Results flagged for a closer look

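Results were set aside for a closer look where the effect of phosphine differed by a test between times or between tissues, which among the members held for Cxcr4 alone in the fits within tissues, or where 1 rat lay far from its group. Between the 4 times, the adjusted p of the F test was 0.0383 for 1389244_PM_x_at in brain stem, 0.00418, 0.0155 and 0.00558 for 1370097_PM_a_at, 1373661_PM_a_at and 1389244_PM_x_at in heart, and 2.9e-04, 0.00109 and 0.00118 for the same sets in lung. Between the 6 tissues at 1 h, the Welch-type F test gave 3.3e-06, 1.2e-05 and 3.3e-06. With the rat as block the difference between tissues was also called for Cxcl1 (8.0e-06), Cxcl2 (2.7e-04) and 1393182_PM_at of Cxcl3 (0.0409). In brain stem, heart and lung the effect at 1 h was a fall, and the later effects lay between -0.14 and 0.74.

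Among the 40 groups of 4 or 5 rats behind the called effects or the values printed per rat, 3 held a rat whose gap to the next one passed Dixon's critical value. In heart at 6 h the PH3 animal Rat391 read 6.11 for Cxcl1, with the next PH3 heart at 3.65. In lung at 24 h the Air animal Rat502 read 8.07 for Cxcl1, with the next at 7.16. In blood at 1 h the Air animal Rat345 read 3.87 for Cxcl2, with the next at 3.52, and all 4 PH3 bloods were still higher. Over every member and group, 35 of 658 groups (5.32%) passed, and chance flags about 1 in 20.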

How the results depend on the processing

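The count of members called at 1 h, 10, became 3 with the groups of that time fitted alone, while the count at 3 h, 1, became 2. The 3 h count was 0 with the 3′ minus 5′ difference as a covariate and 0 without the 12 arrays that stand apart. In the replicate block fit (rat as random block, all tissues) the counts were 3 at 6 h and 1 at 24 h, where limma within tissues had 0, and 6 members differed between tissues in place of 3. The 3 added were Cxcl1, Cxcl2 and 1393182_PM_at of Cxcl3. Leaving out 1 rat at a time gave 7 to 10 calls at 1 h, 0 to 2 at 3 h (0 without Rat355 or Rat368, 2 without Rat340, Rat359 or Rat387), 0 at 6 h and 0 at 24 h, 5 to 8 members whose effect differed between times, and 1 to 5 whose Air level did (5 without Rat340 or Rat382, 1 without Rat400). Of 118 effects of called members under the other alternatives, 100 kept direction and call, 18 lost the call and 0 reversed. The controls from other times and the omission of the arrays that stand apart were chosen after seeing the data. The cause of these changes was not tested. Most Cxcl2, Cxcl3 and Cxcr2 readings, and most of Cxcl1 outside lung, lie near the low end of the range, where RMA values compress differences.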
